A study of Mus musculus with 2 samples.

Results

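Transcripts of secreted Wnt proteins were followed in a mouse osteosarcoma line carrying human DKK1. So were those of the factors that amplify or block Wnts outside the cell and of the proteins needed to release them. The group was chosen by symbol and holds 34 genes of the 18193 genes that have a probe set with 1 gene symbol on the array. It is made of 19 Wnt ligands, 4 R-spondins, 9 antagonists and the 2 ligand-processing genes Porcn and Wls, read by 60 probe sets. The data are 2 samples of MOS-J cells, each on 1 Affymetrix mouse array. The DKK1 sample is labelled as carrying a lentivirus with the human DKK1 gene, and the control sample as carrying a control lentivirus. Both are the same tumour line, and no other allele or agent separates them in the labels. The protocols shared by both samples mention lentiviral delivery with G418-selected clones, a plasmid route with blasticidin selection, and later labelling of mitochondria with a red fluorescent protein followed by sorting. Which of these steps the arrayed cells went through, whether they were 1 clone or a pool, and which promoter drove DKK1 is not stated in the labels. With 1 array per group there is no replicate, no test and no p-value, and every difference compares these 2 arrays.

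Wnt proteins are lipid-modified signals of short range. The acyltransferase Porcn adds the lipid and the carrier Wls takes the ligand to the cell surface. Canonical ligands join a Frizzled receptor to LRP5 or LRP6 and stabilise beta-catenin, and non-canonical ligands such as Wnt5a act on cell polarity, movement and calcium through Frizzled, Ror and Ryk receptors. R-spondins bind Lgr receptors and keep Frizzled and LRP on the surface. Secreted Frizzled-related proteins (Sfrp1, Sfrp2, Sfrp4, Sfrp5 and Frzb) and Wif1 bind the ligand itself, Notum removes its lipid, and Sost and Sostdc1 bind LRP co-receptors, as DKK1 does. In bone, canonical signalling drives osteoblast formation, and Sost and DKK1 restrain it.

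Values are MAS5 signals, 1 per probe set, on a linear scale. Differences are log2(signal + 16.6), DKK1 minus control, with 16.6 taken from the signals themselves (their 25th percentile), so folds of dim genes are understated. A probe set counted as measured where its 2 signals averaged at least 71.3, the median over all probe sets. To be called, a gene had to differ at least 2-fold in the mean over its measured probe sets, a difference of 1 on the log2 scale, with all of them pointing the same way. Between probe sets of 1 gene, over the 4978 genes with at least 2 measured, the pooled SD of the difference was 0.45 on the log2 scale. This SD is a spread between probe sets on the same 2 arrays and not a spread between cultures. The authors' scaling gave both arrays the same trimmed mean, with median signals of 78.6 for DKK1 and 62.6 for control. Hybridisation controls had a median log2 ratio of -0.37 and poly-A controls one of 0.64, DKK1 over control, so the zero line depends on the scaling. Of the osteoblast-lineage markers on the array, 6 of 8 were measured, namely Col1a1, Col1a2, Sparc, Sp7, Alpl and Postn, while Ibsp and Dmp1 were below the filter. Postn was the 1 called, with 676 in DKK1 cells and 41.2 in control cells (3.58). Of 6 cartilage markers 3 were measured, with Col9a1 called higher (1.001, 112.8 in DKK1 cells and 48.0 in control cells). Comp was at 0.42 and Sox9 at -0.19, and Acan, Col2a1 and Matn3 were below the filter. Leukocyte markers summed to a signal of 590 in DKK1 cells and 446 in control cells, with 4 of 8 measured. Lyz2 was called higher (2.29), with 136 in DKK1 cells and 14.5 in control cells. Laptm5 was called lower (-1.10), with 44.2 in DKK1 cells and 113.5 in control cells. The lower signals of Postn, Col9a1, Lyz2 and Laptm5 were all below the filter. Cd68 was at 0.48 and Csf1r at 0.45. The pan-leukocyte marker Ptprc had 4.24 in DKK1 cells and 11.7 in control cells, below the filter. Of 3 adipocyte markers on the array 1 was measured, Fabp4, called higher (1.31), while Adipoq and Cidec were below the filter. Of 5 endothelial markers 1 was measured and of 5 epithelial markers 2, with none called. The part of these cell types in the differences was not tested.

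The introduced gene is human, so the probe sets for mouse Dkk1 do not check the labels. Their signals were 42.5 and 2.01 in DKK1 cells, against 13.0 and 10.97 in control cells, all below the filter.

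Only 10 of the 34 genes had a measured probe set, or 16 of 60 probe sets. These were the ligands Wnt5a, Wnt5b, Wnt6 and Wnt7b, the enhancer Rspo2, the antagonists Sfrp1, Sfrp4 and Sfrp5, and the secretion genes Porcn and Wls. Over the whole array 60.8% of genes were measured. Of the 10, the calls were higher for 3 (Rspo2, Wnt5a and Wnt7b) and lower for 1 (Sfrp1), and 6 were not called. Among all 11058 measured genes 11.7% were called higher and 6.91% lower. The median of the 10 was 0.50, beside 0.10 for all measured genes. Scaled on the poly-A controls these became -0.095 and -0.52, with Wnt5a alone called higher and Sfrp1 and Sfrp4 called lower. Over all measured genes 4.27% were then called higher and 24.1% lower. Scaled on the hybridisation controls the medians were 0.84 and 0.46, with the same 3 genes called higher and none of the 10 called lower. Over all measured genes the shares were then 21.6% and 3.45%. In bulk RNA, fewer cells making a transcript and less of it per cell cannot be told apart.

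**Figure D1:**
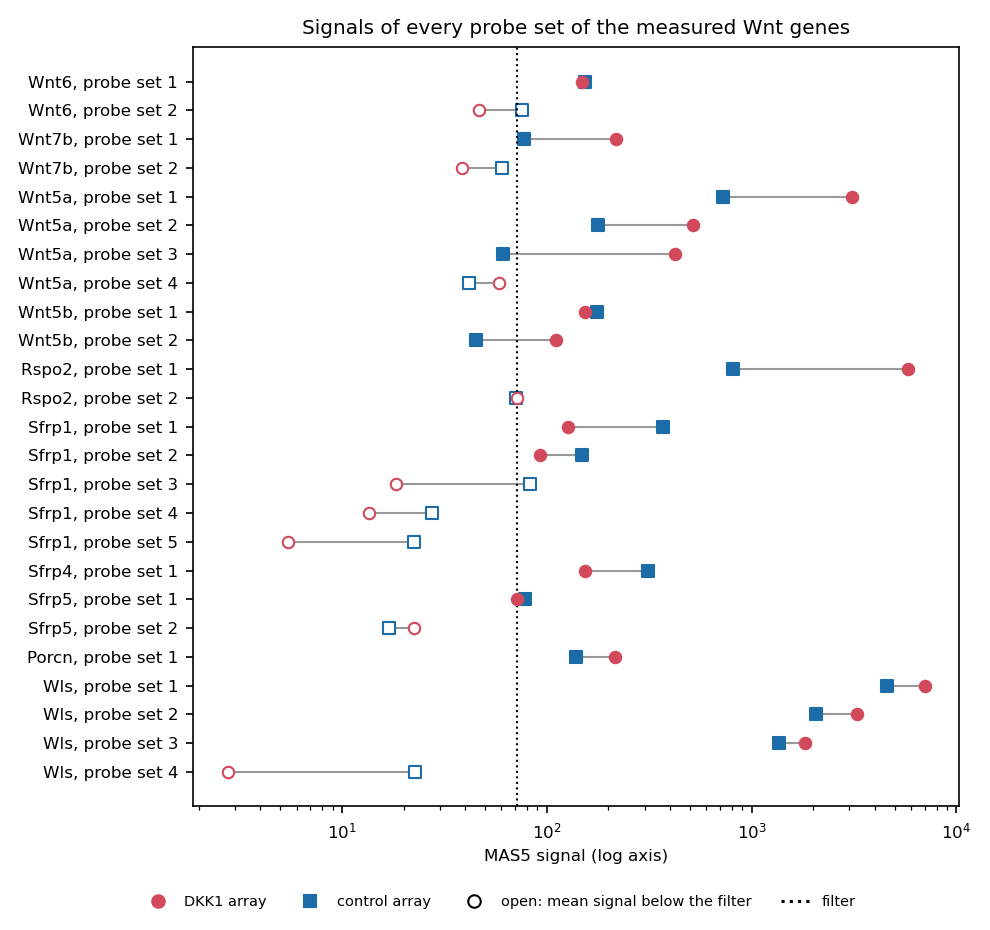
MAS5 signal (log axis) of every probe set of the 10 measured genes, with circles for the DKK1 array and squares for the control array. Open symbols mark probe sets whose mean signal is below the filter of 71.3 (dotted line). All 3 measured Wnt5a probe sets and the measured Rspo2 probe set lie to the right on the DKK1 array, and all 5 Sfrp1 probe sets lie to the left. The signals of the dim Rspo2 probe set nearly coincide (71.4 on the DKK1 array and 70.5 on the control array).

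Rspo2, an R-spondin that raises the cell's response to Wnt, had the largest difference of the 10 as reported, although that of Wnt5a was larger under poly-A scaling, under quantile normalization and without the filter. Probe set 1455893_at had a signal of 5775 in DKK1 cells, against 807 in control cells, a ratio of 7.16. On the log2 scale with the pseudocount this was 2.81, and 109 of the 11058 measured genes had a difference at least as high. The second probe set, 1430104_at, had 71.4 in DKK1 cells and 70.5 in control cells, so its mean of 70.9 lay just below the filter. The value thus rests on 1 probe set. With both probe sets counted the difference was 1.41 and the call was kept. Under quantile normalization and under poly-A scaling the second probe set passed the filter with the opposite sign, which ended the call at 1.29 and 0.84. When the same probe sets were kept under those scalings, an alternative chosen after seeing the data, the values were 2.84 and 2.18.

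The other R-spondins were below the filter on both arrays. Rspo1 had 11.8 in DKK1 cells and 3.44 in control cells, and Rspo4 had 11.7 in DKK1 cells and 8.56 in control cells. Both Rspo3 probe sets stayed at or below 12.96. No fold is given for these, since both signals lie in the dim range. Among the R-spondin receptors and the enzymes they control, named after their values were seen, Lgr4 had 2696 in DKK1 cells and 1426 in control cells, a difference of 0.91 that missed the call. A dim second probe set of Lgr4 had 3.17 in DKK1 cells and 28.0 in control cells. Lgr6 had 271 and 272 in DKK1 cells, against 220.1 and 223.9 in control cells. Lgr5 and the ubiquitin ligase gene Rnf43 were below the filter, and its relative Znrf3 differed by 0.23.

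Wnt5a, the ligand best known for non-canonical signalling, was higher on all 3 measured probe sets. Probe set 1436791_at had 3097 in DKK1 cells and 723 in control cells. Probe set 1448818_at had 515 in DKK1 cells and 178 in control cells, and 1437673_at had 423 in DKK1 cells and 61.2 in control cells. The last control signal was below the filter. The mean difference was 2.01 with an SD of 0.53 between probe sets, and 305 measured genes were at least as high. With dim signals raised to the filter, the fold averaged over the 3 probe sets was at least 4.19. A further probe set, 1456976_at, was dim at 58.6 in DKK1 cells and 41.7 in control cells. Wnt5a was the 1 member called under all 14 alternatives, at 1.41 to 2.36.

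Wnt5b, the closest relative of Wnt5a, was measured by 2 probe sets that disagreed. Probe set 1422602_a_at had 110.4 in DKK1 cells and 45.0 in control cells (1.04), and 1439373_x_at had 153.6 in DKK1 cells and 176.1 in control cells (-0.18). The mean of 0.43 had an SD of 0.86 between them, so no direction was called. The _x mark of the second ID denotes probes that may also match other transcripts.

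Wnt11, a non-canonical ligand of cell movement, had 60.6 in DKK1 cells and 9.59 in control cells. Its difference of 1.56 would have been called without the filter, but both signals were below the filter and no fold is given. Wnt4, which acts by either route depending on the cell, had dim signals of 53.5 and 6.05 in DKK1 cells, against 67.7 and 8.57 in control cells.

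Of the 14 canonical ligands 2 were measured, too few for a median. Wnt7b, a ligand of lung and kidney development that also promotes bone formation in mice, was called higher on 1 probe set. Probe set 1420892_at had 216.9 in DKK1 cells and 77.6 in control cells, a difference of 1.31 and a ratio of 2.80. The dim probe set 1420891_at went the other way, with 38.6 in DKK1 cells and 60.3 in control cells, and with it counted the difference was 0.42 and the call ended. Wnt6 had 149.1 in DKK1 cells and 153.8 in control cells on 1419708_at, a difference of -0.04. Its dim probe set 1435980_x_at had 46.4 in DKK1 cells and 75.3 in control cells.

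The remaining 12 canonical ligands, Wnt1, Wnt2, Wnt2b, Wnt3, Wnt3a, Wnt7a, Wnt8a, Wnt8b, Wnt9a, Wnt9b, Wnt10a and Wnt10b, had no measured probe set. Closest to the filter were Wnt3a, a classical activator of beta-catenin, with 76.7 in DKK1 cells and 52.9 in control cells, Wnt7a with 73.1 in DKK1 cells and 52.9 in control cells on 1 of its 3 probe sets, and Wnt10a with 78.8 in DKK1 cells and 45.5 in control cells. Furthest below it was Wnt3, with 1.96 in DKK1 cells and 1.55 in control cells. Wnt16, a ligand of cortical bone used by both routes and left out of either class, had 7.63 in DKK1 cells and 3.27 in control cells. Over the 20 dim probe sets of canonical ligands, 13 (65.0%) had the higher signal on the DKK1 array, beside 55.4% of all dim probe sets with 1 symbol. Most probe sets with 1 symbol, dim or not, had the higher signal on the DKK1 array (19310 of 34945 in all). Several of the 20 read the same gene and are not separate units.

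In the RefSeq gene order 4 pairs of these ligands are direct protein-coding neighbours, namely Wnt6 and Wnt10a on chromosome 1, Wnt3a and Wnt9a as well as Wnt9b and Wnt3 on chromosome 11, and Wnt10b and Wnt1 on chromosome 15. Of these 8 genes only Wnt6 was measured.

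**Figure D2:**
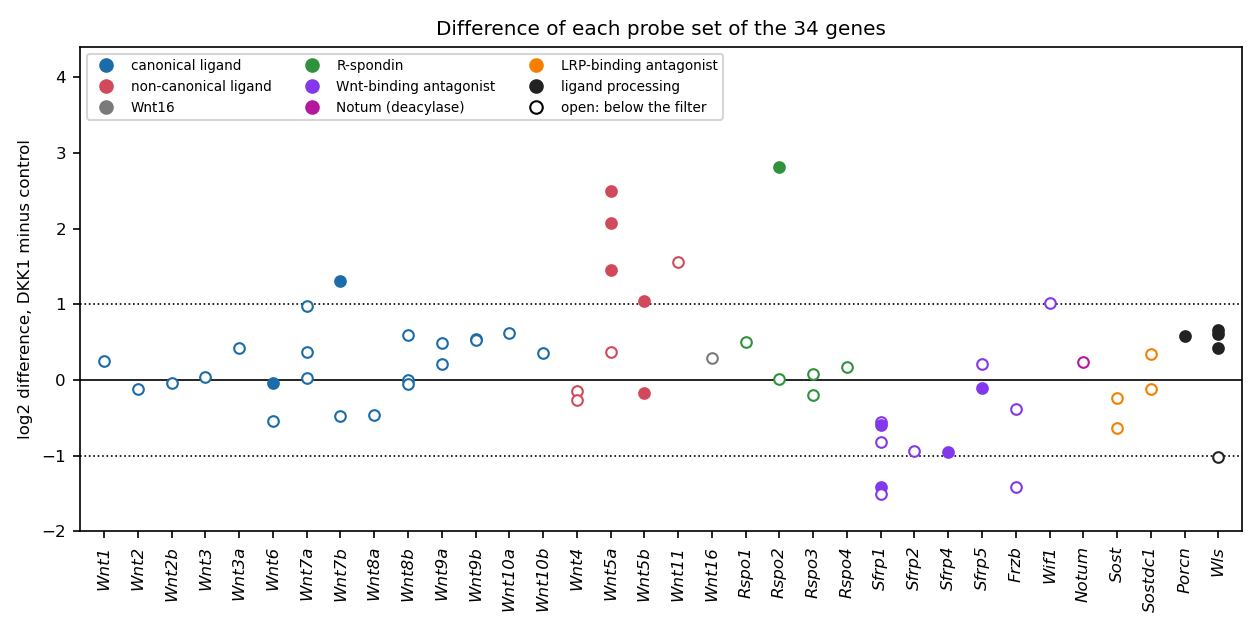
The log2 difference, DKK1 minus control, of each of the 60 probe sets (vertical axis), by gene (horizontal axis) and coloured by class, with open circles for probe sets below the filter and dotted lines at 1 and -1. Filled points above the upper line belong to Wnt7b, Wnt5a, Wnt5b and Rspo2, and antagonists lie mostly below 0.

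Of the 9 antagonists 3 were measured, and 1 of them, Sfrp1, was called lower. The differences were -1.01 for Sfrp1, -0.95 for Sfrp4 and -0.11 for Sfrp5, with a median of -0.95 beside 0.10 for all measured genes. The median was -1.54 with poly-A scaling and stayed below 0 under every other scaling tried, while Sfrp5 turned to 0.20 with hybridisation scaling. Of the 17 antagonist probe sets, 4 had a higher signal in DKK1 cells, all of them dim. That is 4 of 13 dim antagonist probe sets (30.8%), beside 55.4% of all dim probe sets with 1 symbol. The 13 include the dim probe sets of Sfrp1, and probe sets of 1 gene are not separate units.

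Sfrp1, a soluble decoy for Wnt ligands that limits bone formation in mice, was lower on 5 of 5 probe sets. Probe set 1428136_at had 127.5 in DKK1 cells and 367.9 in control cells (-1.42), and 1438620_x_at had 92.6 in DKK1 cells and 148.3 in control cells (-0.59). The mean of -1.01 had an SD of 0.58 and lay just past the threshold, where 761 measured genes were at least as low. The dim probe sets had 18.4, 13.5 and 5.43 in DKK1 cells, against 82.8, 27.5 and 22.4 in control cells. With them counted the difference was -0.98 and the call ended.

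Sfrp4, which is linked to cortical bone thickness and phosphate handling, fell just short of a call. Its 1 probe set, 1451031_at, had 153.5 in DKK1 cells and 312.1 in control cells, a difference of -0.95 and a ratio of 2.03, control over DKK1. It was called lower under 8 of 13 alternatives. Sfrp5 was the member nearest above the filter, with 71.7 in DKK1 cells and 78.5 in control cells on 1436075_at (-0.11).

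The remaining antagonists were below the filter on every probe set. Sfrp2 had 2.97 in DKK1 cells and 20.97 in control cells. Frzb, also called Sfrp3, had 1.98 and 2.68 in DKK1 cells, against 7.68 and 34.9 in control cells. Wif1 had 17.3 in DKK1 cells and 0.149 in control cells, so its difference of 1.02 rests on a signal near 0. The lipid-removing enzyme gene Notum, itself a canonical target in several tissues, had 71.8 in DKK1 cells and 58.5 in control cells. Sost, the sclerostin gene of osteocytes, had at most 39.5 on either array, and its relative Sostdc1 at most 11.1.

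**Figure D3:**
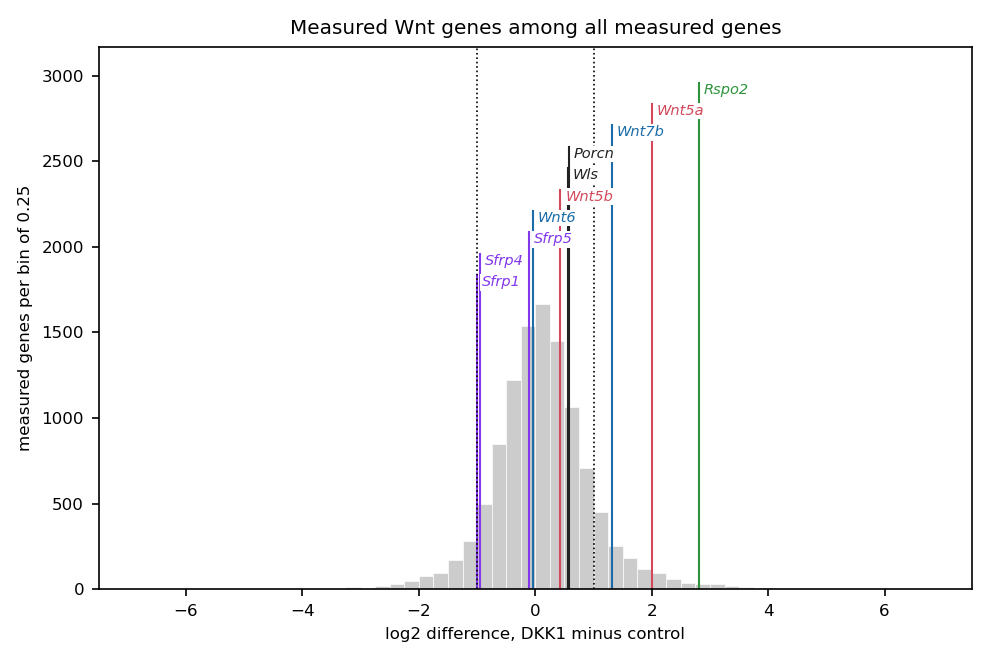
Number of measured genes (vertical axis, bins of 0.25) by log2 difference, DKK1 minus control (horizontal axis), with a vertical line for each of the 10 measured Wnt genes and dotted lines at 1 and -1. Rspo2 at 2.81 and Wnt5a at 2.01 lie in the upper tail, Sfrp1 at -1.01 and Sfrp4 at -0.95 at the lower call line, and the other 6 between -0.11 and 1.31.

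Both genes of ligand processing were measured and neither was called. Wls had 6990, 3267 and 1825 in DKK1 cells, against 4595, 2067 and 1355 in control cells, on 1423824_at, 1437434_a_at and 1423825_at. The 3 differences of 0.60, 0.66 and 0.42 averaged 0.56 with an SD of 0.12, the smallest spread between probe sets among the 4 members with several measured. A dim probe set, 1458319_at, had 2.76 in DKK1 cells and 22.7 in control cells. Porcn had 216.0 in DKK1 cells and 138.7 in control cells, a difference of 0.58. Both lay near the 75th percentile of all measured genes (75.1 for Wls and 75.9 for Porcn). With poly-A scaling Wls turned to -0.075 and Porcn to -0.0013.

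DKK1 acts on the branch that ends in TCF and LEF factors, whose core motif was therefore looked for in the promoters of these genes. RefSeq promoters of build GRCm38.p6, 250 bases before to 50 after a start, were matched by symbol for 23 of the 34 genes (26 promoters), 4 of them measured (Wls, Wnt5b, Wnt6 and Sfrp5). The letters CTTTGA, or TCAAAG on the other strand, were found in 3 of the 26 (in Wnt5b, Wnt11 and Frzb), beside 16.0% of all 32851 promoters. Below are the 1 match in a measured gene, at 1 of the 3 starts of Wnt5b (chr6:119449337-119449636, minus strand), with the match in capitals, and the promoter of Wls (chr3:159839400-159839699, plus strand), which holds none. A match is only a stretch of letters and was not set against the signals.
Wnt5b: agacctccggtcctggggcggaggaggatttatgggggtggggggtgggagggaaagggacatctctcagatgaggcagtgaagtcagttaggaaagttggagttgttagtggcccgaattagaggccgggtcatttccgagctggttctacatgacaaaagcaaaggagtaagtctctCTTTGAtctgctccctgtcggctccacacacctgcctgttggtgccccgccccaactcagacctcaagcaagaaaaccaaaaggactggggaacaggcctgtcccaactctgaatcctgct
Wls: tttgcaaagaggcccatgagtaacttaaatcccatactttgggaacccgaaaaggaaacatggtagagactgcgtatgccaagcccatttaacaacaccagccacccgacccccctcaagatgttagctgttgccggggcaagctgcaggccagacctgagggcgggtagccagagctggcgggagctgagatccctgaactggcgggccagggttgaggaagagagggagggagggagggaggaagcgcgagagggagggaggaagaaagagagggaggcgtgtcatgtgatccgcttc

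The other genes of the pathway were read through 4 lists. Of 16 measured Wnt receptors and their regulators, 4 were called higher and 1 lower, with a median difference of 0.68. Over all measured genes 11.7% were called higher and 6.91% lower. With hybridisation scaling 8 receptors were called higher and 0 lower, beside 21.6% and 3.45% of all measured genes. With poly-A scaling 2 were called higher and 1 lower, beside 4.27% and 24.1% of all measured genes. Fzd1, a Frizzled receptor, had 2762 in DKK1 cells and 545 in control cells on its measured probe set (2.31), and Fzd2, a receptor for Wnt5a among others, differed by 1.83 (SD 0.27, 3 probe sets). Fzd4 was lower at -1.58 (SD 0.76, 2 probe sets). Its call ended with dim signals raised to the filter (-0.92), the larger pseudocount (-0.95) and hybridisation scaling (-0.73). The Wnt5a receptors Ror1 and Ror2, named after their values were seen, were below the filter, with no signal above 37.4. Ryk differed by 0.81 (SD 0.54, 3 probe sets) and was not called.

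Of 12 measured other secreted regulators, 5 were called higher and 1 lower, with a median of 0.66. Over all measured genes the shares were 11.7% and 6.91%. With hybridisation scaling 6 were called higher and 1 lower, beside 21.6% and 3.45% of all measured genes. With poly-A scaling 11 were measured, 1 called higher and 1 lower, beside 4.27% and 24.1% of all measured genes. Dkk3, a member of the DKK family that does not act like DKK1 on LRP6, had 1571 and 3523 in DKK1 cells, against 216 and 236 in control cells (3.29, SD 0.73). Gpc6, a heparan sulfate proteoglycan of the cell surface, differed by 1.44 (SD 0.27, 4 probe sets), and its call ended with poly-A scaling (0.87). Cthrc1, a secreted collagen-modifying protein that favours the Wnt5a and Ror2 route in mice, was lower, with 389 in DKK1 cells and 1456 in control cells (-1.86).

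Of 18 measured genes of the non-canonical branch, 3 were called higher and 0 lower, with a median of 0.44. Over all measured genes the shares were 11.7% and 6.91%. The counts were 6 higher and 0 lower with hybridisation scaling, beside 21.6% and 3.45% of all measured genes. With poly-A scaling 19 were measured, 2 called higher and 4 lower, beside 4.27% and 24.1% of all measured genes. With the original probe sets kept under poly-A scaling, 3 of 18 were called higher and 3 lower. The shares of all measured genes were then 4.73% and 23.6%. Prickle2, a core gene of planar cell polarity, had 1820 in DKK1 cells and 363 in control cells (2.27). Vangl2, a membrane protein of the same system, differed by 1.82 (SD 0.51, 2 probe sets). Nfatc2, a calcium-responsive transcription factor, differed by 1.75, but its 2 measured probe sets were far apart (SD 1.65), and the call ended when its dim probe sets were counted (0.78).

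Of 15 measured canonical targets, 6 were called higher and 2 lower, beside 11.7% and 6.91% of all measured genes. Their median of 0.62 was 0.01 without the filter, beside 0.08 for all genes. The counts were again 6 and 2 with hybridisation scaling, beside 21.6% and 3.45% of all measured genes. With poly-A scaling 4 were called higher and 2 lower, beside 4.27% and 24.1% of all measured genes. The largest difference was that of Tnfrsf11b, the osteoprotegerin gene (3.68, 6028 in DKK1 cells and 456 in control cells). Next came the matricellular protein genes Ccn5 (3.21, 5392 in DKK1 cells and 569 in control cells) and Ccn1 (2.06, SD 0.29, 4 probe sets). Further targets were named after their values were seen. The 2 called lower were Ccn4 (-1.65, SD 0.14, 2 probe sets) and Myc (-1.53, 1235 in DKK1 cells and 3597 in control cells). Axin2 (1.08) and Lef1 (1.04) were called higher just past the call line, and Ccnd1 was at -0.13. Under poly-A scaling, which lowered the median of all genes to -0.52, the list medians were -0.080 for receptors, 0.0025 for other secreted regulators, -0.20 for the non-canonical branch and 0.01 for canonical targets.

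**Figure D4:**
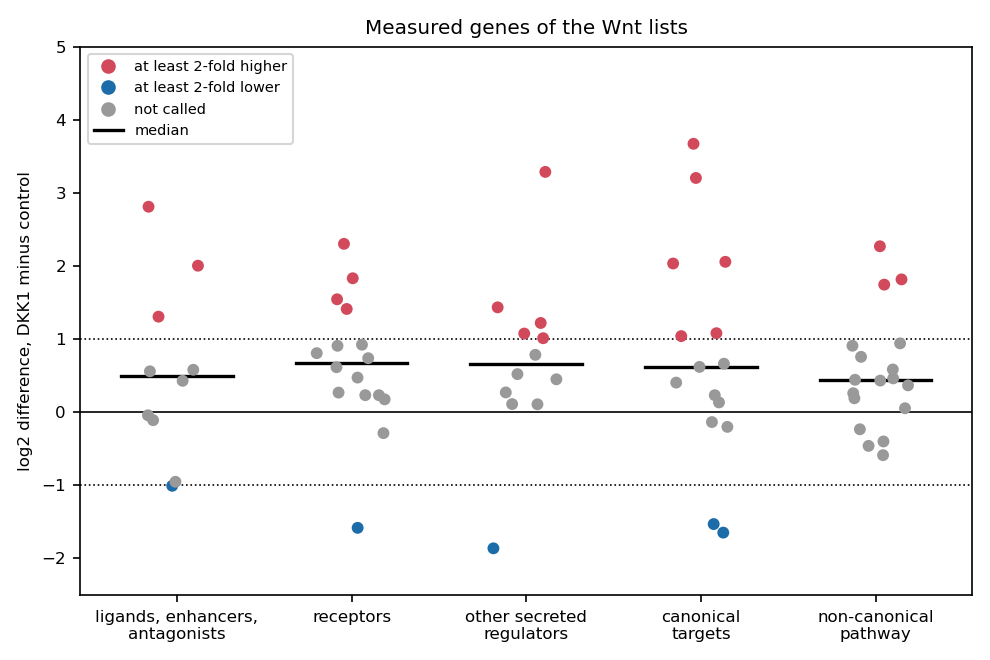
The log2 difference, DKK1 minus control (vertical axis), of each measured gene in the group of ligands, enhancers and antagonists and in 4 other Wnt lists (horizontal axis), with called genes in red (higher) and blue (lower) and a bar at each median. Medians run from 0.44 for the non-canonical branch to 0.68 for receptors, with the 10 measured ligands, enhancers and antagonists at 0.50.

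The 10 genes differed in how far their values depended on the processing. Rspo2, Wnt5a and Wnt7b were above 0 and Sfrp1 and Sfrp4 below 0 under every alternative in which they were measured. Wnt5a kept its call throughout, Rspo2 lost it under 2 of 14, Wnt7b under 4 of 13 and Sfrp1 under 3 of 13. Wnt5b, Wnt6, Sfrp5, Porcn and Wls were called under none, and each took both signs.

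**Figure D5:**
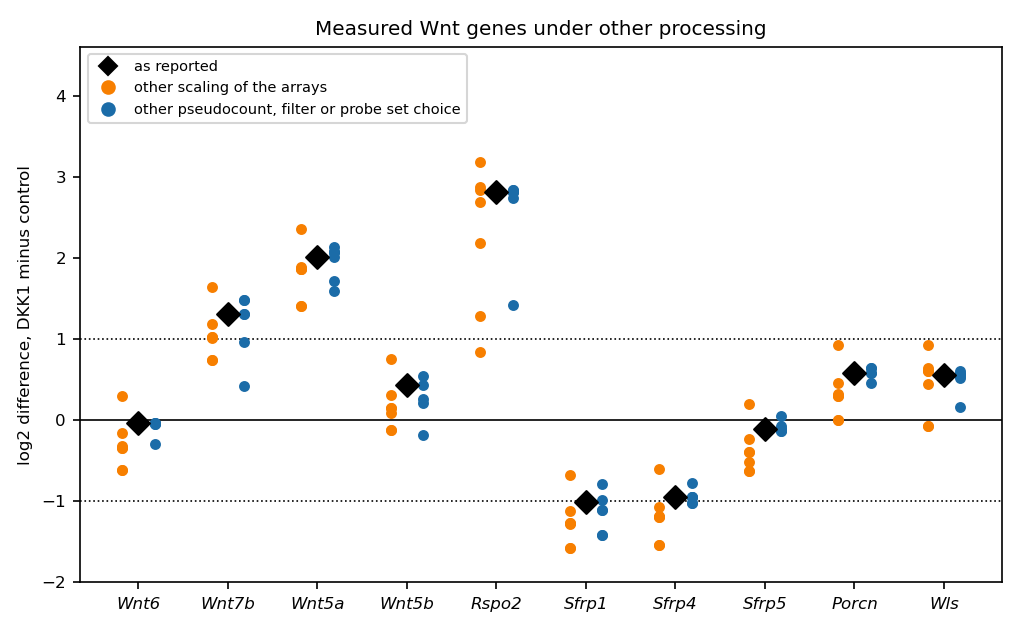
The log2 difference, DKK1 minus control (vertical axis), of the 10 measured genes (horizontal axis) as reported (diamonds), under other scalings of the arrays (left points) and under other pseudocounts, filters or probe set choices (right points), with dotted lines at 1 and -1. Wnt5a stays above 1 throughout, at 1.41 to 2.36, while Rspo2 runs from 0.84 to 3.18.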

How the data were processed

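RNA from 1 DKK1 and 1 control sample of MOS-J cells (500 ng) was amplified from its 3' end and biotin-labelled, per the labels' protocols. The deposited values are intensity values, 1 signal for each of 45101 probe sets. The submitters' processing notes name MAS5, with no version or settings. MAS5 scales each array alone, so a shift shared by all genes is not seen, dim signals are noisy, and the table used here has no detection calls. The number of arrays, the scaling and the noise of dim signals limit the precision.

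Symbols came from the platform annotation, of which 34958 probe sets have 1 symbol and 932 several. Of those with 1 symbol, 34754 were found by gene ID in a RefSeq table (GRCm38.p6) and none changed its symbol. The 64 control probe sets were left out of the gene values. Differences, filter and calls are as given above, computed in Python 3.11.15 with pandas 2.3.3 and numpy 2.4.6, loess with statsmodels 0.14.6, and the calling was tested on simulated data. Every measured member is named. From each other list the 3 called genes with the largest differences are named, and further ones are marked. The members, lists, classes of ligand and rules were chosen with earlier results of these data known. Alternatives were other pseudocounts, filters, scalings and probe set choices. Values for the other lists under them, and scalings with the probe sets kept, were added after seeing the data. Medians were to be given for classes with at least 3 measured genes, which only the antagonists had.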

Additional observations from a re-analysis of the deposited data

How the results depend on the processing

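No paired analysis was possible because each group has 1 array. The count of members called higher, 3 as reported, was 1 with poly-A scaling and 2 with the larger pseudocount, the stricter filter, quantile normalization, and poly-A scaling on the original probe sets. It was 4 with no filter, where Wnt11 and Wif1 were called and Wnt7b was not. The count called lower, 1 as reported, was 2 with no pseudocount, with dim signals raised to the filter, and with median centring, quantile normalization, loess and poly-A scaling (in the last 3 of which Sfrp4 was at -1.18 to -1.54). It was 0 with the larger pseudocount, no filter, the stricter filter and hybridisation scaling. The median of the members moved from 0.50 to 2.07 with the stricter filter, which left 3 measured, and to -0.095 with poly-A scaling. It was 0.20 with loess, 0.22 with quantile normalization, 0.21 with no filter, 0.24 with marked probe sets left out, 0.27 with the brightest probe set and 0.84 with hybridisation scaling. That of the antagonists was -0.44 without the filter and -1.54 with poly-A scaling. Keeping the probe sets of the original filter under quantile or poly-A scaling gave 2 called lower in both. Over all measured genes the share called higher ran from 4.27% with poly-A scaling to 21.6% with hybridisation scaling. The share called lower ran from 3.45% with hybridisation scaling to 24.1% with poly-A scaling. Among called genes over the whole array 62.9% were higher as reported, and 51.4% with median centring, 51.8% with loess, 49.8% with quantile normalization, 86.2% with hybridisation and 15.1% with poly-A scaling. The causes were not tested. Without the filter the class medians were 0.30 for canonical ligands, 0.99 for non-canonical ligands and 0.34 for R-spondins, beside 0.08 for all genes. Dim probe sets were 20 of 22 for canonical ligands, 4 of 9 for non-canonical ligands and 5 of 6 for R-spondins. The non-canonical class holds 4 genes and counts Wnt4, which acts by either route. With no detection calls, whether the 24 dim members were expressed cannot be read from these values.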
